A study of Homo sapiens with 62 samples.

Results

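The 9 genes described here encode 4 subunits of gamma-secretase (APH1A, NCSTN, PSEN2 and PSENEN), 3 NOTCH receptors (NOTCH1, NOTCH2 and NOTCH3) and 2 transcription factors that NOTCH signalling switches on in many tissues (HES1 and HEY1). They were chosen by gene name, whatever their values, and all 9 were found among the 58735 genes of the count tables and among the 48162 genes of the tables for the A2780 line. Gamma-secretase is a protease embedded in the cell membrane. The active site lies in a presenilin, of which PSEN2 is described here, nicastrin (NCSTN) is the large glycoprotein at the entrance for substrates, an APH1 protein holds the complex together, and PEN-2 (PSENEN) completes its activation. When a ligand on a neighbouring cell binds a NOTCH receptor, a metalloprotease cuts the receptor outside the membrane and gamma-secretase cuts it inside. The freed intracellular part enters the nucleus, joins the DNA-binding protein RBPJ and switches on targets such as HES1 and HEY1, both of which repress other genes. Because 3 of the 4 subunit genes lie on 1q, cells that lose an extra copy of 1q also lose a copy of each.

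Messenger RNA was sequenced in 62 libraries of 5 human cell lines, in 16 groups. Parental cells (WT) carry a gained chromosome arm, and single-cell clones of them lost the extra copy through ReDACT, a family of genome engineering techniques whose versions the labels name CO, NS and TR. A2058, a melanoma line whose WT cells carry gains of 1q, 7p and 8q, had 4 WT libraries and libraries of 2 1q-loss, 3 7p-loss and 2 8q-loss clones (CO, 2 libraries each). HCT116, a colorectal cancer line with an 8q gain, had 2 WT libraries and 2 8q-loss clones (CO, 2 libraries each). AGS, a gastric adenocarcinoma line with a 1q gain, had 1 WT library, 1 library of each of 2 clones that keep the gain and carry the TK integrant (TK+), and 1 library of each of 5 1q-loss clones, 4 made by NS and clone 11 by CO. A2780, an ovarian cancer line with a 1q gain, had 2 WT libraries, 2 TK+ libraries and 3 1q-loss clones (NS, 2 libraries each). MCF10A, a breast epithelial line whose clones are labelled as having lost an extra 1q, had 2 WT libraries and 4 1q-loss clones (2 libraries each, clones 1 to 3 by TR and clone 4 by CO). The same design, with as many libraries, was repeated in MCF10A cells expressing hRASV12, an activated HRAS (called hRas here). A loss group therefore stands for a few clones, and the libraries of 1 clone are not independent of each other. Labels name biological replicates for MCF10A, and elsewhere nothing says that libraries came from separate cultures, so p-values measure the spread between libraries, which may be technical.

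Libraries held 15042068 to 30984036 counts. Levels are given as CPM, a gene's counts relative to the size of its library, scaled by TMM within a line, and changes as log2 fold changes with their standard error (SE) from the quasi-likelihood test of edgeR, with p-values adjusted by the Benjamini-Hochberg method over all genes tested in a comparison and a gene called at an adjusted p under 0.05. Of the marker genes of the labelled tissues, KRT5 was strong in MCF10A (3768 and 4490 CPM in WT) and EPCAM, an epithelial gene, in AGS (721 CPM in WT). KRT14, a basal keratin, was uneven among the MCF10A 1q-loss clones, at 55.4 to 124 CPM in clones 1 and 2 and 3.71 to 7.02 CPM in clones 3 and 4, against 65.1 and 74.05 CPM in WT. None of the 4 breast epithelial markers was called there, and their part in the MCF10A results was not tested. In AGS, CLDN18, a gastric gene of the list, had at most 3 counts in any library, so it did not mark the line as labelled. Of the 3 gastric or epithelial markers tested in AGS 1 was called lower in the 1q-loss clones. TFF1, a gastric mucosal peptide, was at 18.04 to 28.5 CPM in the AGS controls and 0 to 3.96 CPM in the clones, and KRT18 at 1004 to 1499 and 1622 to 2282 CPM. In A2780 the 4 ovarian or mullerian markers (PAX8, WT1, MUC16 and EPCAM) summed to at most 1.94 CPM in every group, so these did not mark the line as labelled. In HCT116, CDX2 was at 33.9 and 47.1 CPM in WT, while VIL1 was at 0 and KRT20 at no more than 0.338 CPM. In A2058 the 5 melanocyte lineage markers (SOX10, MITF, PMEL, MLANA and TYR) summed to 1655 to 2685 CPM in WT but to 43.8 to 134 CPM in the 1q-loss libraries, and 5 of 5 were called lower there. In 7p-loss and 8q-loss 1 and 2 of the 5 were called lower. MLANA, at 13.9 to 23.7 CPM in WT, was at 1.59 to 5.03 CPM in 7p-loss and 1.59 to 2.70 CPM in 8q-loss, and TYR was at 96.6 to 156 CPM in WT and 2.08 to 6.60 CPM in 8q-loss. The 7p-loss clones split on TYR, with 585 to 1060 CPM in clone 1, above WT, and 0.0965 to 4.91 CPM in clones 2 and 3, below it. Their part in the A2058 results below was not tested.

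On GRCh38 APH1A (ENSG00000117362) spans chromosome 1 from 150265399 to 150269580, NCSTN (ENSG00000162736) from 160343272 to 160358952 and PSEN2 (ENSG00000143801) from 226870184 to 226896105, all on 1q. NOTCH2 (ENSG00000134250) lies across the centromere, on 1p from 119911553 to 120069626, and was not in the lost arm. PSENEN (ENSG00000205155) is on 19q (35745114 to 35747519), NOTCH3 (ENSG00000074181) on 19p (15159038 to 15200981), NOTCH1 (ENSG00000148400) on 9q (136494433 to 136545786), HES1 (ENSG00000114315) on 3q (194136145 to 194138732) and HEY1 (ENSG00000164683) on 8q (79764010 to 79767863). The A2780 tables use GRCh37 coordinates, in which APH1A starts at 150237804 and PSEN2 at 227057885 on chromosome 1. Counts are over the exons of each gene. Whether the counting used the strand is not given in the sources used here, so reads of APH1A and C1orf54, of NCSTN and COPA, of PSENEN and U2AF1L4, and of NOTCH1 and an antisense gene cannot be told apart where those genes overlap. NOTCH2 has near-identical partial copies on the same chromosome (the NOTCH2NL genes), so its counts are uncertain to the extent that reads were split between them.

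The promoters of HES1 and NOTCH3 are shown because HES1 is a direct target of the RBPJ complex in textbook accounts and NOTCH3 had the widest range in CPM of the 9 genes. Each run holds the bases before the start of the gene, 5′ to 3′ on the strand of the gene, from RefSeq (GRCh38.p14), at chr3:194135898-194136144 on the plus strand for HES1 and chr19:15200996-15201245 on the minus strand for NOTCH3. Capitals mark TGGGAA, the core of the sequence that RBPJ binds, searched on both strands.

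HES1: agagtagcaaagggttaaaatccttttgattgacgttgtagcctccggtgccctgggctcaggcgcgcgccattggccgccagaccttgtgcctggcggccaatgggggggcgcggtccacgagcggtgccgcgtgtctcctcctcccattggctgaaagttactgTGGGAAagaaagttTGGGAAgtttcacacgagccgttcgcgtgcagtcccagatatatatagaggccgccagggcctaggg

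NOTCH3: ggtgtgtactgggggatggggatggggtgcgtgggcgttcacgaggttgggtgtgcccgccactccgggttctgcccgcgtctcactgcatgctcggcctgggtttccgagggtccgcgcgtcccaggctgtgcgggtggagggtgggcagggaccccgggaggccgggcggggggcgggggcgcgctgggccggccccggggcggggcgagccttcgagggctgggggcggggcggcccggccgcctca

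In windows of 250 bases before and 50 bases after the start, TGGGAA occurred in the HES1 promoter at 84 and 70 bases before the RefSeq start and 1 time in that of PSENEN. The RefSeq start of HES1 lies a few bases past the end of the run shown, so distances to that end are shorter. It was not found in those of APH1A, NCSTN, PSEN2, NOTCH1, NOTCH2 or NOTCH3. The HEY1 promoter was not searched. Of 35116 RefSeq promoters of the same length, 24.0% held at least 1 match and 3.80% held 2 or more. The longer form GTGGGAA, which contains the shorter one, occurred 1 time in the HES1 window and in 6.25% of all promoters. These are descriptions of letters and say nothing on binding in these cells.

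**Figure D1:**
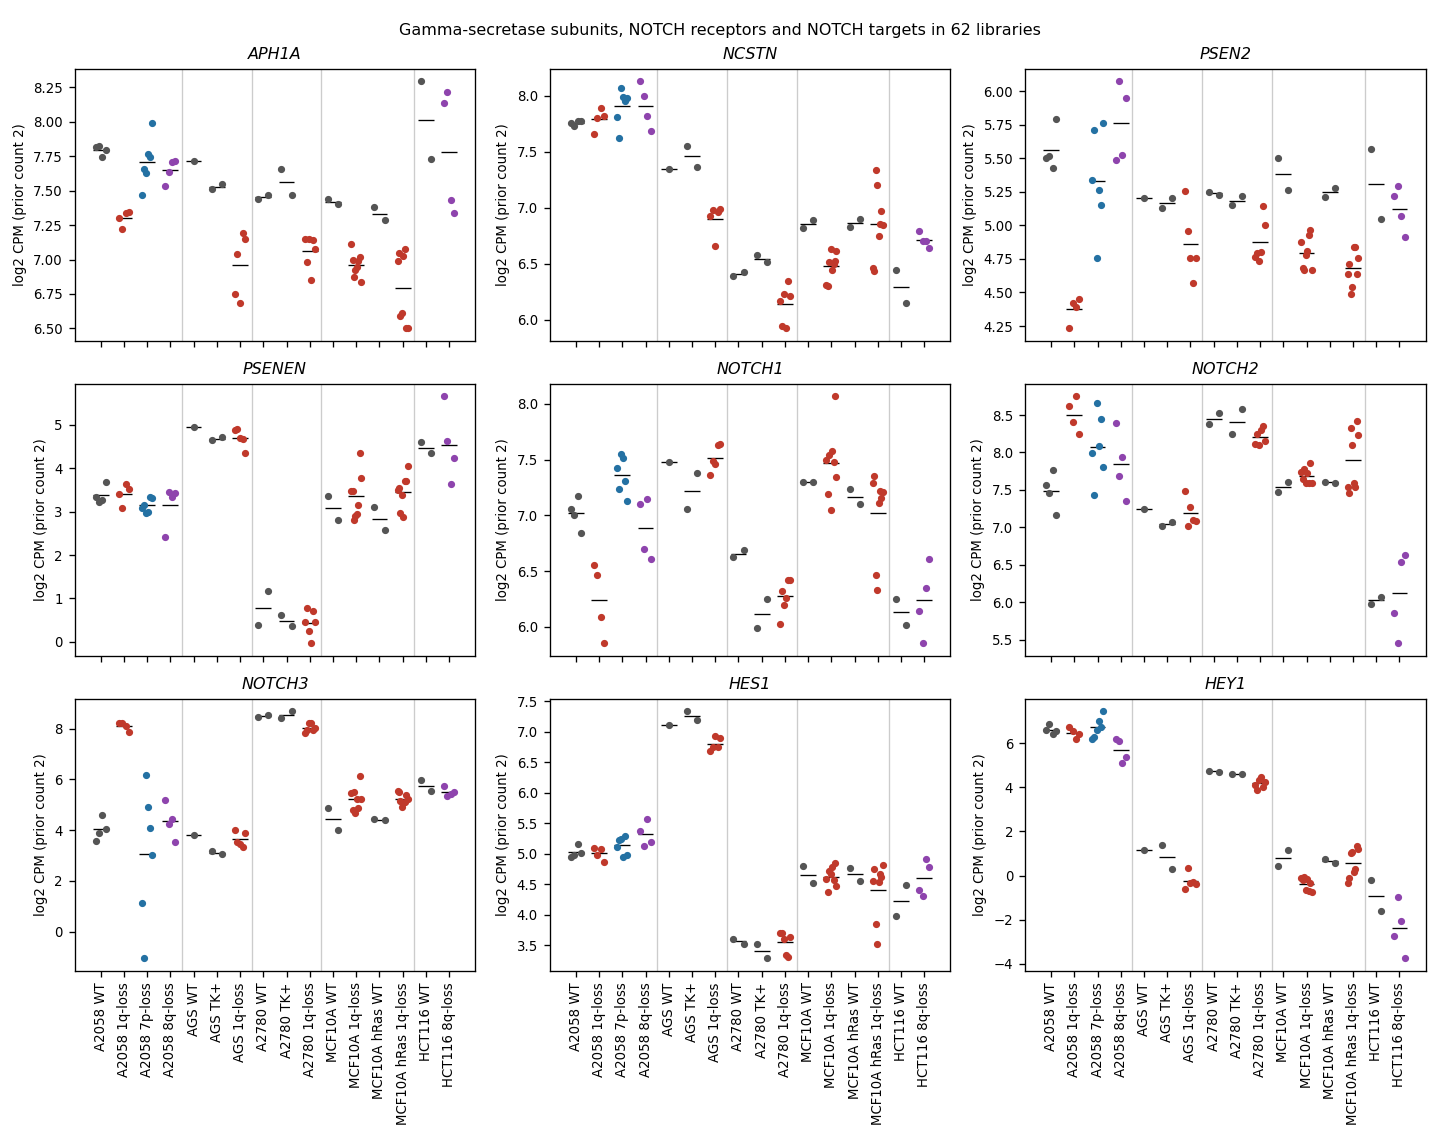
Level of each gene (log2 CPM with a prior count of 2) in every library, by group on the horizontal axis. Points are libraries, black bars group means, red 1q-loss, blue 7p-loss, purple 8q-loss and grey the groups that keep their gains. APH1A lay below all of its controls in every 1q-loss library (with no call in MCF10A hRas), PSEN2 in AGS clone 1 lay above its controls, and NOTCH3 in A2058 1q-loss (233 to 299 CPM) stood far above A2058 WT (11.96 to 24.5 CPM).

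Compared per kilobase of exon, which allows levels of different genes to be set side by side within a line, APH1A and NCSTN were the most abundant subunits of the 4 and PSEN2 and PSENEN the least. In A2058 WT APH1A was at 64.0 ± 1.62 and NCSTN at 51.9 ± 0.769 CPM per kilobase (SD, n = 4), against 12.6 ± 1.47 for PSEN2 and 5.65 ± 0.882 for PSENEN. In A2780 WT, on that line's own exon lengths, the order was APH1A (74.6 ± 1.11), NCSTN (28.0 ± 0.552), PSEN2 (15.3 ± 0.132) and PSENEN (1.47 ± 0.582 CPM per kilobase, SD, n = 2). AGS and HCT116 WT differed in that PSENEN (16.6 and 12.01 CPM per kilobase) was listed above PSEN2 (9.78 and 10.7). In HCT116 those 2 values lay closer together than the libraries spread (SD of 2.73 for PSEN2), so their order there is not settled, and AGS WT is 1 library.

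The first question was whether the 3 subunit genes on 1q followed the loss of the arm. APH1A, the scaffold subunit, fell in 4 of the 5 1q-loss comparisons, to 70.9% of control in A2058, 65.5% in AGS, 73.2% in A2780 and 72.8% in MCF10A, beside the 66.7% that 2 copies in place of 3 would give. In A2058 its level was 226, 227, 214 and 222 CPM in WT and 158, 149, 162 and 162 CPM in 1q-loss libraries. Those groups did not overlap (log2 -0.50, SE 0.05, adjusted p = 3.34e-05). In AGS the controls were at 210.1 (WT), 183 and 187 (TK+) CPM and the 5 clones at 108, 131, 102, 146 and 142 CPM. Every clone lay below every control (log2 -0.61, SE 0.14, adjusted p = 0.0327), though the call was lost in 5 of 14 alternative fits. Of the 14 fits for each AGS gene, 1 was against WT alone, which is 1 library, so it cannot decide a call. A2780 controls were at 174, 177, 202 and 177 CPM and its 1q-loss libraries at 116 to 142 CPM with a median of 138 (log2 -0.45, SE 0.07, adjusted p = 0.00206). MCF10A WT libraries were at 173 and 169 CPM and the 1q-loss libraries at 114 to 138 CPM with a median of 125 (log2 -0.46, SE 0.08, adjusted p = 0.00536). With either WT library left out it missed the threshold (adjusted p = 0.157 and 0.0997).

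NCSTN, the substrate-receiving subunit, fell in 2 lines and showed no drop in A2058. In AGS it went from 163 (WT), 188 and 165 (TK+) CPM to 121, 126, 101, 125 and 127 CPM, with no overlap (log2 -0.51, SE 0.11, adjusted p = 0.0278). In A2780 it went from 83.8 and 86.2 (WT) and 95.4 and 91.3 (TK+) CPM to 60.7 to 81.2 CPM, median 72.8 (log2 -0.34, SE 0.08, adjusted p = 0.0233). Both sets of controls lay above every 1q-loss library of their line. The call was lost in 6 of 14 alternative fits in AGS and in 5 of 21 in A2780, including in A2780 the fit against WT alone (adjusted p = 0.177). The 6 in AGS include the fit against its 1 WT library, which could not decide the call. In A2058 NCSTN stood at 216, 212, 220 and 218 CPM in WT and at 202, 224, 237 and 226 CPM in 1q-loss libraries (log2 0.03, SE 0.06, adjusted p = 0.673). In MCF10A it was at 113 and 119 CPM in WT and 78.9 to 99.0 CPM, median 90.9, in 1q-loss libraries, all below both controls, but was not called (log2 -0.37, SE 0.09, adjusted p = 0.0713, DESeq2 adjusted p = 0.0187). In A2058 the groups overlapped, while the other tested genes within 5 Mb of it on 1q had median shifts of -0.53 and -0.46 in the 2 clones. That difference between lines was tested directly: the A2058 effect on NCSTN minus the AGS effect was 0.52 (SE 0.12, adjusted p = 0.00243), and minus the MCF10A effect 0.40 (SE 0.13, adjusted p = 0.0300, called in 28 of 38 alternative fits).

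PSEN2 differed between the lines in the opposite sense to NCSTN. In A2058 it fell to 43.7% of WT, from 45.21, 45.7, 43.0 and 55.4 CPM to 18.7, 21.4, 20.9 and 21.8 CPM (log2 -1.19, SE 0.10, adjusted p = 3.81e-06). All 4 1q-loss libraries were below all WT libraries, and 14.6% of the 677 tested 1q genes had a lower log2 fold change. In AGS it was 36.7 (WT), 34.9 and 36.8 (TK+) CPM against 38.1, 31.0, 26.9, 23.6 and 26.9 CPM in the clones, where clone 1 was above the controls (log2 -0.30, SE 0.15, adjusted p = 0.258). The fall was larger in A2058 than in AGS by 0.92 on the log2 scale (SE 0.17, adjusted p = 0.000197) and than in MCF10A by 0.60 (SE 0.17, adjusted p = 0.0186). The MCF10A difference was lost in 5 of 38 alternative fits, the lowest and highest adjusted p being 0.00432 and 0.186. In A2780 PSEN2 fell from 37.9 and 37.4 (WT) and 35.5 and 37.2 (TK+) CPM to 26.6 to 35.3 CPM, median 27.7, and was called (log2 -0.33, SE 0.09, adjusted p = 0.03235), but in only 9 of 21 alternative fits. In MCF10A it fell from 45.3 and 38.3 CPM to 25.3 to 31.2 CPM, median 27.7 (log2 -0.59, SE 0.11, adjusted p = 0.00853), which missed the threshold with either WT library left out (adjusted p = 0.367 and 0.0543).

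In MCF10A hRas none of the 3 genes was called, although APH1A and PSEN2 did not overlap their controls. APH1A was at 166 and 156 CPM in hRas WT and 90.5 to 135 CPM, median 112, in 1q-loss libraries (log2 -0.52, SE 0.17, adjusted p = 0.246). PSEN2 was at 37.05 and 38.8 CPM in hRas WT and 22.3 to 28.5 CPM, median 25.5, in 1q-loss libraries (log2 -0.56, SE 0.11, adjusted p = 0.0842, DESeq2 adjusted p = 0.000652). NCSTN was at 114 and 119 CPM in hRas WT and ran from 86.8 CPM in clone 1 to 162 CPM in clone 2 (log2 0.03, SE 0.21, adjusted p = 0.959).

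PSENEN, whose gene is on 19q, was called in none of the 15 comparisons. It stood at 9.21 to 12.8 CPM in A2058 WT and 8.36 to 12.4 CPM in A2058 1q-loss, at 24.9 to 30.7 CPM in AGS controls and 20.2 to 30.0 CPM in AGS clones. In A2780 all 10 libraries held 21 to 44 counts of it (0.8865 to 2.17 CPM), which limits what can be seen there. MCF10A clone 4 had the highest values, 20.2 and 13.6 CPM against 10.2 and 6.88 CPM in WT. In that clone the other tested genes of 19q also stood 0.42 higher in the median (log2), and in hRas clone 4 (12.9 and 16.4 CPM of PSENEN) 0.53 higher. The arm moved less in other clones where PSENEN was above its controls, with PSENEN at 0.40 and 19q at 0.03 in MCF10A clone 1, and at 0.69 and 0.13, 0.34 and 0.15, and 0.45 and 0.04 in hRas clones 1, 2 and 3 (log2). The hRas comparison gave 0.66 for PSENEN (SE 0.30, adjusted p = 0.354), with 4 of 4 clones above the controls in the mean and libraries that overlapped them.

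**Figure D2:**
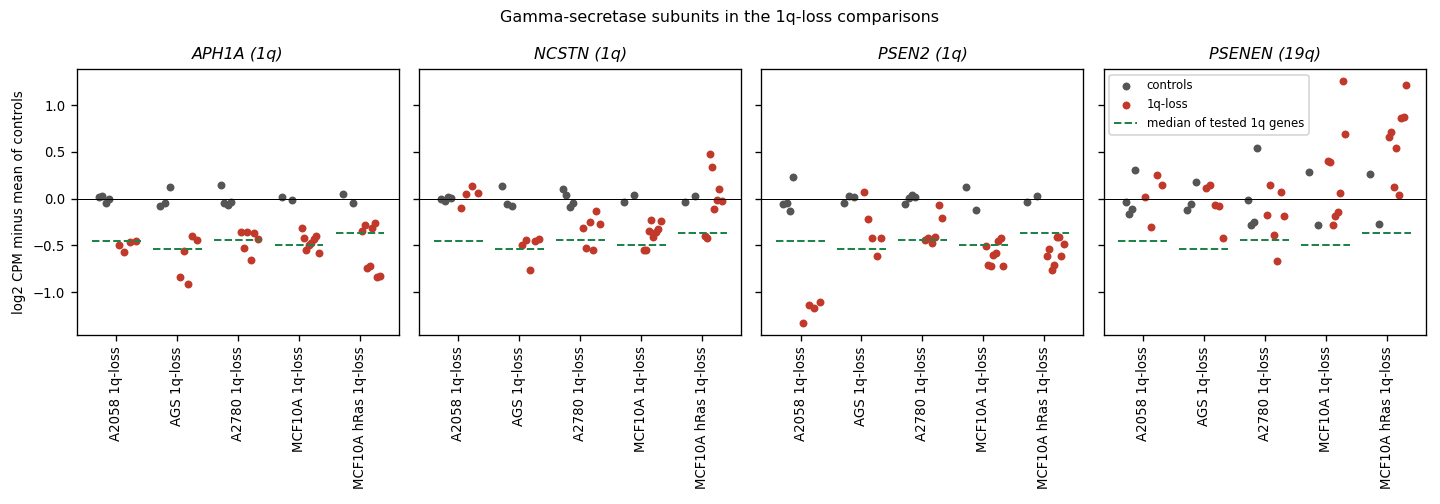
Log2 CPM of the 4 subunit genes minus the mean of the controls, per library (grey controls, red 1q-loss), with the median log2 fold change of all tested 1q genes as a dashed green line. APH1A lay around that line in A2058, A2780 and MCF10A, PSEN2 fell past it in A2058 (log2 -1.19), and NCSTN lay around 0 in A2058 (log2 0.03) and was spread on both sides of 0 in the hRas clones.

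Taken as a mean of the 3 log2 fold changes, the 1q subunits stood at -0.55 in A2058, -0.47 in AGS, -0.37 in A2780, -0.47 in MCF10A and -0.35 in MCF10A hRas. The medians of all tested 1q genes were -0.46, -0.54, -0.45, -0.49 and -0.36, so the subunit mean was lower than that median in A2058 and higher in the other 4 comparisons. It lay near the middle of the 1q genes in each. The share of them with a lower log2 fold change was 41.8% in A2058, 55.2% in AGS, 60.4% in A2780, 53.5% in MCF10A and 51.7% in MCF10A hRas. The mean was below that of the controls in 18 of 18 1q-loss clones, counting the MCF10A clones with and without hRas separately. Those carry the same clone numbers and methods, and clone 4 of both showed the 19q shift above, so they may be the same clones in 2 states. Read against the arm, APH1A, NCSTN and PSEN2 gave 2 lower calls in A2058 (59.7% of tested 1q genes were called lower), 2 in AGS (32.2%), 3 in A2780 (48.7%), 2 in MCF10A (34.6%) and 0 in MCF10A hRas (3.47%). In the hRas comparison edgeR's unadjusted p was under 0.05 for 2 of the 3 (APH1A and PSEN2), and DESeq2 called PSEN2.

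Counting all 9 genes, 5 were called in A2058 1q-loss (49.6% of all tested genes were called), 4 in AGS (7.55%), 5 in A2780 (11.8%) and 2 in MCF10A (2.04%). These counts include the calls of APH1A, NCSTN and PSEN2 given above, for which the share of 1q genes is the closer measure. Outside 1q the called genes were NOTCH1, NOTCH2 and NOTCH3 in A2058, HES1 and HEY1 in AGS, NOTCH3 and HEY1 in A2780 and none in MCF10A. In A2058 the share of members lay near the share of all genes. In MCF10A hRas 0 of the 9 were called by edgeR, where 0.214% of all genes were, with 3 at an unadjusted p under 0.05 and 2 called by DESeq2.

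The receptors lie outside 1q, and NOTCH3 showed the largest change of the 9 genes. NOTCH3 is best known from vascular smooth muscle and pericytes and as an oncogene in some carcinomas. In A2058 WT it was at 11.96, 14.8, 24.5 and 16.6 CPM, and in 1q-loss libraries at 299 and 298 (clone 1) and 276 and 233 CPM (clone 2). Both clones stood above every other A2058 library, and the increase was 16.3-fold (log2 4.02, SE 0.20, adjusted p = 1.71e-07). The call held in 19 of 19 alternative fits. On the per-kilobase scale NOTCH3 went from the lowest of the 3 receptors in A2058 (1.81 ± 0.569 in WT) to the highest (29.4 ± 3.26, SD, n = 4). The melanocyte markers fell in the same libraries (SOX10 from 469 to 651 CPM in WT down to 24.8 to 82.0 CPM), and the part of this in the NOTCH3 values was not tested.

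The other receptors in A2058 moved in opposite directions. NOTCH2 rose from 189, 176, 218 and 143 CPM to 393, 339, 431 and 305 CPM, a 2.02-fold change (log2 1.01, SE 0.14, adjusted p = 0.0001445). NOTCH1 fell from 133, 128, 145 and 114 CPM to 93.8, 88.3, 67.8 and 57.7 CPM (log2 -0.76, SE 0.14, adjusted p = 0.001315). In neither case did 1q-loss and WT libraries overlap, and both calls held in 19 of 19 alternative fits. The genes within 5 Mb of NOTCH2 had median shifts of 0.11 and -0.08 in the 2 clones, so its rise was not shared by its neighbours on 1p.

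A2058 clones with other arms lost give a check that does not use the WT libraries, which the A2058 comparisons otherwise share. Against the mean of the 7p-loss and 8q-loss groups, NOTCH3 was higher (log2 3.64, SE 0.73, adjusted p = 0.00121), and APH1A (log2 -0.40, SE 0.08, adjusted p = 0.00156), PSEN2 (log2 -1.22, SE 0.18, adjusted p = 8.38e-05) and NOTCH1 (log2 -0.89, SE 0.14, adjusted p = 0.000219) were lower. DESeq2 gave no adjusted p for NOTCH3 in this comparison. These were 4 of the 9, where 39.3% of all genes were called. NOTCH2 was not called there (log2 0.50, SE 0.21, adjusted p = 0.0726), though DESeq2 called it (adjusted p = 0.0350), and the 7p-loss libraries had 172 to 403 CPM with a median of 263. In A2058 the libraries numbered 1 had more NOTCH1, NOTCH2 and NOTCH3 and less PSEN2 than those numbered 2 in 7 of 7 loss clones, and 12.3% of tested genes went 1 way in all 7. In MCF10A, with and without hRas, this held for NOTCH2 in 8 of 8 clones and for NOTCH3 in 7 of 8, where 1.04% of genes went 1 way in all 8. For NOTCH2 in A2058 the first libraries were at 393 and 431 CPM in 1q-loss and at 245 to 403 CPM in the other loss clones, and the second at 339 and 305 CPM and at 163 to 272 CPM, so that the groups overlapped among the first and not among the second. HES1 was likewise outside the threshold (log2 -0.24, SE 0.10, adjusted p = 0.0577) and called by DESeq2 (adjusted p = 0.0440). With the libraries of each clone summed, NOTCH3 (adjusted p = 0.0585) and APH1A (0.0566) were just outside the threshold, while PSEN2 (0.00688) and NOTCH1 (0.0185) were inside it. NOTCH2 and HES1 were outside it when summed (0.145 and 0.139). With the library number added to the edgeR fit as a block they were called (0.00939 and 0.0202).

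Among A2058 clones that lost other arms NOTCH3 also varied widely. In 7p-loss clone 1 it was nearly silent, at 2.075 and 0.392 CPM (42 and 11 counts), whereas clone 2 had 72.8 and 30.3 CPM and clone 3 had 16.7 and 8.10 CPM. Clone 1 was also the 7p-loss clone with TYR above WT, and the part of that in its NOTCH3 values was not tested. The 8q-loss libraries ranged from 11.6 to 36.2 CPM. The 7p-loss comparison for NOTCH3 therefore had a wide error (log2 0.37, SE 0.97, adjusted p = 0.904). No 7p-loss or 8q-loss library reached the lowest 1q-loss value of 233 CPM.

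**Figure D3:**
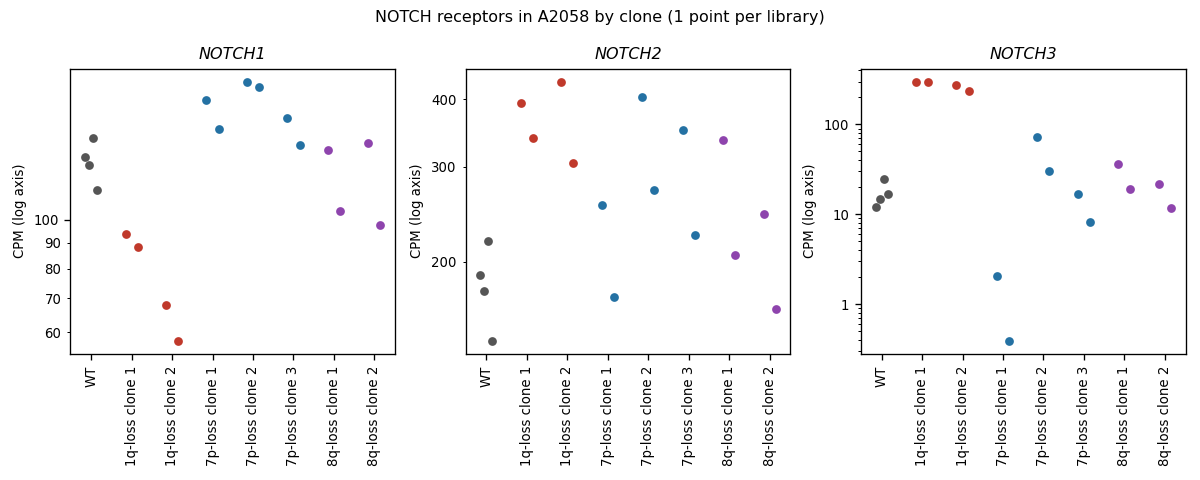
CPM of NOTCH1, NOTCH2 and NOTCH3 on log axes in A2058, by clone, with 1 point per library (grey WT, red 1q-loss, blue 7p-loss, purple 8q-loss). The 4 1q-loss libraries sat lowest for NOTCH1 (57.7 to 93.8 CPM) and highest for NOTCH3 (233 to 299 CPM), while for NOTCH2 some 7p-loss and 8q-loss libraries, all of them numbered 1, reached the same range.

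In the other lines NOTCH3 fell in A2780 and was not called in MCF10A, MCF10A hRas or AGS. In MCF10A it was at 28.96 and 15.95 CPM in WT and at 25.2 to 69.9 CPM, median 37.5, in 1q-loss libraries (log2 0.81, SE 0.34, adjusted p = 0.355). Among libraries numbered 1 the WT value was 28.96 and the clones ran from 36.95 to 69.9 CPM, and among those numbered 2 they were 15.95 and 25.2 to 37.95 CPM, so that libraries of the same number did not overlap, though the numbers did not meet the criterion for pairing. In MCF10A hRas it was at 21.7 and 20.9 CPM in WT and 30.5 to 46.95 CPM, median 36.0, in 1q-loss libraries, with 8 of 8 above both controls (log2 0.84, SE 0.17, adjusted p = 0.0844, and DESeq2 adjusted p = 0.000703). Clones 1 to 4 were above their controls in the mean both with and without hRas. In A2780, where NOTCH3 was the most abundant receptor per kilobase (44.6 ± 1.43 in WT, SD, n = 2), it fell from 352, 368, 339.5 and 410 to 228 to 302 CPM, median 255 (log2 -0.48, SE 0.09, adjusted p = 0.00747, called in 21 of 21 alternative fits). All 6 A2780 1q-loss libraries lay below all 4 controls. In AGS it was at 14.1 (WT), 9.03 and 8.16 (TK+) CPM against 16.1, 11.5, 10.9, 9.87 and 14.8 CPM in the clones, with overlap (log2 0.28, SE 0.24, adjusted p = 0.4905).

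The line differences for the receptors were large. The A2058 effect on NOTCH3 exceeded the AGS effect by 3.72 (SE 0.40, adjusted p = 1.3e-07) and the MCF10A effect by 3.22 (SE 0.38, adjusted p = 9.71e-07). For NOTCH2 the same differences were 0.90 (SE 0.17, adjusted p = 0.000284) and 0.86 (SE 0.17, adjusted p = 0.000932), and for NOTCH1 -0.998 (SE 0.24, adjusted p = 0.00267) and -0.96 (SE 0.25, adjusted p = 0.00879). The difference from MCF10A for NOTCH1 was called in 35 of 38 alternative fits. In all, 6 of the 9 genes differed between A2058 and AGS (23.3% of all genes did) and 6 between A2058 and MCF10A (15.1%). Between AGS and MCF10A, edgeR called 0 of 9 (4.13% of all genes), with HES1 alone at an unadjusted p under 0.05 and DESeq2 calling 0. These 3 differences share libraries with each other.

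NOTCH1 and NOTCH2 were not called in AGS, A2780 or MCF10A with 1q loss. In A2780 the choice of controls mattered for NOTCH1: WT was at 98.5 and 103 CPM, TK+ at 63.4 and 76.1 CPM and 1q-loss at 65.3 to 85.85 CPM, median 78.4. NOTCH1 was lower in TK+ than in WT cells (log2 -0.53, SE 0.10, adjusted p = 0.00302), the only 1 of the 9 called there, where 11.2% of all genes were. The 1q-loss libraries overlapped the TK+ and not the WT libraries. NOTCH2 was 275 to 327 CPM in A2780 1q-loss, median 295, against 333 and 368 (WT) and 303 and 383 (TK+) CPM (log2 -0.22, SE 0.08, adjusted p = 0.102). In AGS NOTCH2 was 152, 130.0 and 135 CPM in controls and 179.8, 129.8, 154, 137 and 135 CPM in clones (log2 0.09, SE 0.13, adjusted p = 0.701).

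The second question was whether the NOTCH targets followed the subunits. HES1, which keeps progenitor cells from differentiating, changed in 1 of the 5 1q-loss comparisons, AGS. There it went from 138 (WT), 161 and 145.5 (TK+) CPM to 103, 108, 122, 107 and 119 CPM in the clones, 75.6% of control (log2 -0.40, SE 0.10, adjusted p = 0.0425). All 5 clones lay below all 3 controls. TFF1 was low in the same clones, at 0 (clones 1 and 4), 1.78 (clone 7), 3.32 (clone 11) and 3.96 CPM (clone 6), and its part in the HES1 and HEY1 values of AGS was not tested. The HES1 call was lost in 9 of 14 alternative fits, 7 of them with 1 library left out and 1 without the filter on low counts (adjusted p = 0.103). The remaining 1 was against WT alone, which in AGS is 1 library, so that fit could not decide the call. The test of AGS minus MCF10A gave -0.34 (SE 0.15, adjusted p = 0.196), and that of A2058 minus AGS 0.36 (SE 0.14, adjusted p = 0.0636). DESeq2 called the latter (adjusted p = 0.0455), as did 8 of 38 alternative fits in all, so whether HES1 differs between A2058 and AGS depends on the fit.

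In the other lines HES1 overlapped its controls. It was at 30.8, 31.6, 35.6 and 32.3 CPM in A2058 WT and at 34.1, 31.6, 33.7 and 29.1 CPM in A2058 1q-loss (log2 -0.02, SE 0.08, adjusted p = 0.847). In A2780 it was at 12.1, 11.4, 11.4 and 9.665 CPM in controls and 9.84 to 12.95 CPM, median 12.3, in 1q-loss libraries (log2 0.07, SE 0.11, adjusted p = 0.744). In MCF10A it was at 27.65 and 22.9 CPM in WT and 20.6 to 28.6 CPM, median 24.6, in 1q-loss (log2 -0.03, SE 0.13, adjusted p = 0.948). These 3 comparisons show means within 0.07 of their controls on the log2 scale, in libraries whose subunit mean was 0.37 to 0.55 lower. In MCF10A hRas HES1 was lower but not called (log2 -0.19, SE 0.29, adjusted p = 0.766). There 3 of 4 clones were below the controls in the mean, clone 2 furthest (log2 -0.98).

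HEY1, a related repressor with roles in vessels and heart, was abundant only in A2058 and A2780. In A2780 it fell from 26.9 and 25.7 (WT) and 24.2 and 24.3 (TK+) CPM to 14.8 to 21.8 CPM, median 17.9 (log2 -0.48, SE 0.11, adjusted p = 0.0183). All 6 1q-loss libraries were below all 4 controls, with the call kept in 16 of 21 alternative fits. In A2058 it was at 97.1, 116, 84.1 and 93.6 CPM in WT and 104, 92.2, 73.6 and 85.9 CPM in 1q-loss, with overlap (log2 -0.14, SE 0.12, adjusted p = 0.375).

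Elsewhere HEY1 was near the limit of these libraries. AGS controls had 40, 39 and 19 counts (2.10, 2.51 and 1.12 CPM) and the 1q-loss clones 9 to 17 counts (0.544 to 1.13 CPM), a difference that was called (log2 -1.35, SE 0.35, adjusted p = 0.0493) but in only 4 of 14 alternative fits. Clone 11, with 1.13 CPM, overlapped the lower TK+ library. MCF10A WT had 38 and 48 counts (1.28 and 2.15 CPM) and the 1q-loss libraries 10 to 22 counts (0.516 to 0.852 CPM, median 0.738), with 8 of 8 below both controls and no call (log2 -1.29, SE 0.34, adjusted p = 0.0844). In MCF10A hRas the clones split: clones 1 and 3 had 0.714 to 1.13 CPM and clones 2 and 4 had 1.97 to 2.43 CPM, around WT values of 1.61 and 1.39 CPM (log2 0.05, SE 0.48, adjusted p = 0.967). The effect on HEY1 differed between A2058 and AGS (1.19, SE 0.31, adjusted p = 0.005895) and between A2058 and MCF10A (1.14, SE 0.30, adjusted p = 0.00940), with counts below 50 in the AGS and MCF10A libraries without hRas. The latter was lost in 2 of 38 alternative fits (adjusted p = 0.0598 and 0.227).

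The targets were also read by clone in the 18 1q-loss clones, all of which had a lower subunit mean. HEY1 was below the mean of its controls in 15, but 11 of these are AGS and MCF10A clones (with and without hRas) whose libraries held 9 to 25 counts of it. HES1 was within 0.1 of its controls on the log2 scale in 10 clones, lower by more in 7 (5 of them AGS) and higher by more in 1. In AGS, the 5 HES1 differences were -0.28 to -0.52 on the log2 scale, and clone 4, with the lowest subunit mean of all (-0.70), had the smallest of these. In A2058 clone 1, with a subunit mean of -0.60, HES1 was at 0.01 and HEY1 at 0.02. In A2058 clone 2, with a subunit mean of -0.50, they were at -0.05 and -0.29. Clones of 1 line share their controls, and the MCF10A clones with and without hRas may be the same ones, so these counts describe the clones and are not a test.

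**Figure D4:**
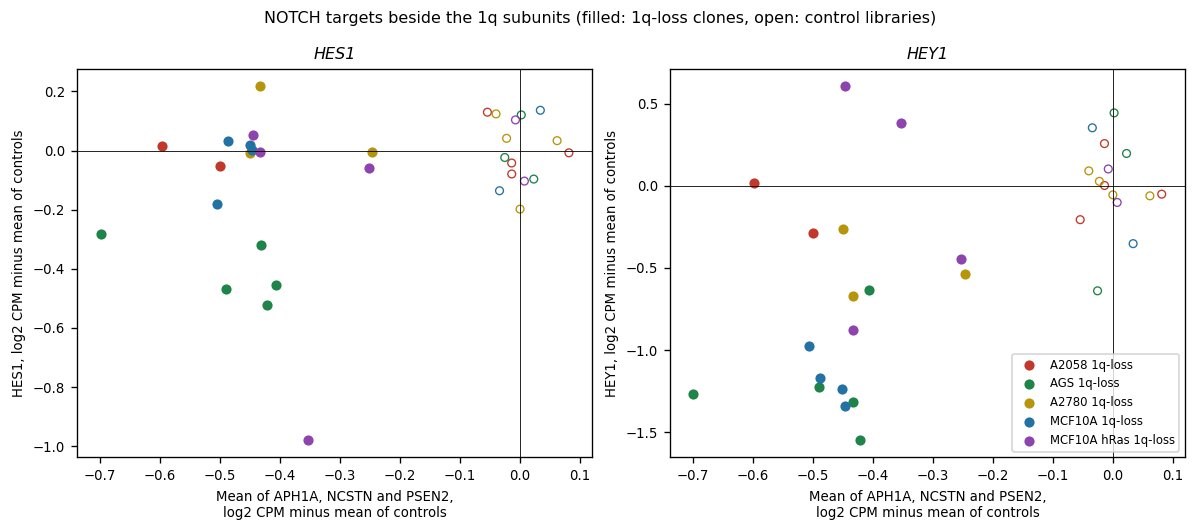
Log2 CPM of HES1 (left) and HEY1 (right) minus the mean of the controls, against the mean of APH1A, NCSTN and PSEN2 on the same scale, for the 18 1q-loss clones (filled, coloured by comparison) and their control libraries (open). The clones form a cloud between -0.70 and -0.25 on the horizontal axis, with AGS clones below 0 for both targets and A2058 clones near 0 for HES1.

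Between hRas WT and WT libraries of MCF10A edgeR called 0 of the 9 genes, where 1.62% of all genes were called, with 0 at an unadjusted p under 0.05 and 0 called by DESeq2. No gene in the table was called for an interaction of 1q loss with hRas by edgeR (0% of genes tested), so 0 of the 9 were. HEY1 was the 1 of the 9 with an unadjusted p under 0.05 there (log2 1.33, SE 0.57, adjusted p = 0.999), and DESeq2 called 0 of the 9.

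The hRas 1q-loss clones differed among themselves, and markers moved with that. Clone 2 had TP63, a basal epithelial regulator, at 0.5125 and 0.634 CPM against 56.7 and 60.4 CPM in hRas WT, and clone 4 had 39.1 and 42.7 CPM. The 4 breast epithelial markers (KRT5, KRT14, TP63 and EPCAM) summed to 607.5 to 637 CPM in clone 2 and 2468 to 2593 CPM in clone 4, against 3717 to 4438 CPM in clones 1 and 3 and 3696 to 3781 CPM in hRas WT. Most of that sum is KRT5, and KRT14 went differently, at 56.7 to 65.7 CPM in clone 2 and 5.23 to 6.12 CPM in clone 4, against 52.2 and 55.4 CPM in hRas WT. In clone 2 HES1 was lowest (14.3 and 11.4 CPM against 27.1 and 23.5 in WT) and NCSTN highest (162 and 148 CPM against 114 and 119). NOTCH1 was also lowest there (88.2 and 80.6 CPM against 150.5 and 137), and NOTCH2 was high in clones 2 (321 and 273 CPM) and 4 (341.5 and 302 CPM) against 195.5 and 192.5 CPM in WT. HEY1, at low counts, was also higher in clones 2 (1.97 and 1.98 CPM) and 4 (2.43 and 2.22 CPM) than in WT (1.61 and 1.39 CPM). Without clones 2 and 4, left out for their markers after their values for these genes were also known, the log2 differences were -0.31 for APH1A, -0.50 for PSEN2, 0.90 for NOTCH3 and -0.23 for NCSTN. These describe clones 1 and 3 and are not a test. The part of the marker shift in the values of clones 2 and 4 was not tested, and in bulk RNA fewer cells of a type and less RNA per cell cannot be told apart.

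Loss of other arms left these genes uncalled. In A2058 7p-loss, edgeR called 0 of 9 (0.908% of all genes were called), with NOTCH1 and NOTCH2 at an unadjusted p under 0.05 and NOTCH1 called by DESeq2 (log2 0.35, adjusted p = 0.0446). In A2058 8q-loss it called 0 of 9 (2.03%), with HES1 and HEY1 at an unadjusted p under 0.05. HEY1 lies on 8q, and it went from 84.1 to 116 CPM in WT to 72.8, 68.7, 34.7 and 40.6 CPM in 8q-loss, with no overlap (log2 -0.85, SE 0.23, adjusted p = 0.110, DESeq2 adjusted p = 0.00830). Clone 2 accounted for the lower pair, while the other tested 8q genes had median shifts of -0.51 and -0.54 in the 2 clones. In HCT116 8q-loss edgeR called 0 of 9 (0.14%), with 0 at an unadjusted p under 0.05 and 0 called by DESeq2. HEY1 there had 22 and 6 counts in WT and 0 to 11 counts in the 8q-loss libraries, which is too few to show a change of 1 copy.

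The wider pathway was read through 32 further genes in 6 roles. In A2058 1q-loss 15 of the 26 tested were called, 11 higher and 4 lower, where 49.6% of all genes were called, with a median of 0.22 on the log2 scale against 0.00 for all genes. Among the called genes with the largest changes, APH1B, the alternative scaffold subunit to APH1A, rose from 2.11 to 3.24 CPM in WT to 7.82 to 10.2 CPM (log2 1.70, SE 0.17, adjusted p = 1.64e-05). LFNG, a glycosyltransferase that tunes which ligands a receptor answers to, rose from 11.9 to 17.8 to 41.6 to 59.4 CPM (log2 1.77, SE 0.15, adjusted p = 5.98e-06). DLL3, a ligand that acts in the signal-receiving cell, fell from 7.78 to 12.9 to 3.58 to 4.45 CPM (log2 -1.33, SE 0.18, adjusted p = 0.000124), and MAML3, a co-activator of the nuclear complex, from 55.6 to 62.2 to 16.5 to 33.1 CPM (log2 -1.27, SE 0.17, adjusted p = 0.000125). Of the processing genes 7 rose and 1 fell, and of the 3 tested further targets (HES4, HEY2 and NRARP) 0 were called. Against clones with another arm lost, 13 of the 26 were called (39.3% of all genes). In the line differences of the 1q-loss effect, 11 of 30 were called for A2058 minus AGS (23.3% of all genes), 8 of 30 for A2058 minus MCF10A (15.1%) and 0 of 30 for AGS minus MCF10A (4.13%), where 6 had an unadjusted p under 0.05 in edgeR and DESeq2 called 3.

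In A2780 1q-loss 8 of 28 were called, 4 in each direction, against 11.8% of all genes. DLL3 rose (log2 0.61, SE 0.14, adjusted p = 0.0159), as did FURIN, the protease that first cuts the receptor in the secretory pathway (log2 0.52, SE 0.13, adjusted p = 0.0272). JAG1, a ligand, fell from 42.99 and 46.5 CPM in WT and 17.8 and 18.1 CPM in TK+ to 3.26 to 11.8 CPM (log2 -1.84, SE 0.41, adjusted p = 0.0158). MAML3 fell as well (log2 -1.05, SE 0.18, adjusted p = 0.003995). Both were already lower in TK+ than in WT (JAG1 log2 -1.31, SE 0.10, adjusted p = 1.94e-06, and MAML3 log2 -0.50, SE 0.12, adjusted p = 0.0215), in a comparison that called 6 of 28 and 11.2% of all genes. HEYL, a target of the HEY family chosen here after its values were seen, behaved likewise, at 35.2 and 35.6 CPM in WT, 20.2 and 21.0 CPM in TK+ and 13.02 to 18.1 CPM in 1q-loss (log2 -0.90, SE 0.18, adjusted p = 0.0101). In AGS 0 of 26, in MCF10A 0 of 30 and in MCF10A hRas 0 of 29 were called by edgeR, with 2, 5 and 6 at an unadjusted p under 0.05 and 1, 2 and 0 called by DESeq2.

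The genes whose levels across the 62 libraries, each centred on its line, were most like those of HES1 were HACD2 (Pearson r = 0.65, on 3q with HES1), SYDE2 (r = 0.64) and OCLN (r = 0.64), of 9364 protein-coding genes compared. For HEY1 they were IMPA1 (r = 0.59), GPAA1 (r = 0.57) and MTERF3 (r = 0.56), all 3 on 8q with HEY1. The values share library depth and, for the 8q genes, the 8q-loss clones of 2 lines. Within single lines the likeness of HES1 and HACD2 ran from -0.21 in A2780 to 0.85 in MCF10A.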

How the data were processed

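Poly-T selected RNA, primed with random hexamers per the labels' protocols, was sequenced from cells grown for 24 h after plating. The authors deposited raw counts per gene, made with HISAT2 2.0.5 and featureCounts 1.5.0-p3 on hg38, per the submitters' processing notes. The A2780 tables hold GRCh37 coordinates, so that line was never fitted together with the others. It was pooled with them only for the genes most like HES1 and HEY1, each line centred on its own mean. Each comparison was fitted with edgeR 4.0.16 (R 4.3.3) on the libraries of its own groups, after filterByExpr (minimum count 10, total 15) and TMM. The quasi-likelihood test was used, with Benjamini-Hochberg adjustment over all genes tested and a threshold of 0.05. Differences between lines came from a joint fit of all AGS libraries with the WT and 1q-loss libraries of A2058 and of MCF10A without hRas. TMM was shared across the lines in that fit (19717 genes tested). Log2 CPM used a prior count of 2. DESeq2 1.42.0 and further edgeR fits served for alternatives, Python 3.11.15, numpy 2.4.6 and pandas 2.3.3 for summaries and matplotlib 3.10.9 for plots. The fits were tested on simulated data. Further pathway genes were named where called in a 1q-loss comparison, the largest 2 changes in each direction at a mean CPM of at least 1. Some items of the pathway list are counted but not reported here by name. Members, lists and tests were chosen with earlier results of these data known. Same-numbered libraries were checked for pairing by the correlation of their deviations from group means, which did not exceed 0.1 for every pair in any comparison of 3 or more, so no block was used.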

Additional observations from a re-analysis of the deposited data

Results flagged for a closer look

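Of 81 sets of libraries of a group, 2 had a library far from the others, and chance gives about 1 in 20. NCSTN in AGS 1q-loss clone 4 was at 101.1 CPM, below the other 4 clones. PSENEN in A2058 8q-loss clone 1 replicate 1 was at 5.229 CPM, below the other 3 libraries.

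The effect of 1q loss differed between lines, by a test of the difference itself, for 6 genes in each of 2 pairs of lines. For A2058 minus AGS the log2 differences were 0.519 for NCSTN, -0.9208 for PSEN2, -0.9976 for NOTCH1, 0.8982 for NOTCH2, 3.723 for NOTCH3, 1.192 for HEY1. For A2058 minus MCF10A they were 0.4037 for NCSTN, -0.6035 for PSEN2, -0.9559 for NOTCH1, 0.8574 for NOTCH2, 3.215 for NOTCH3, 1.139 for HEY1. The 2 sets share the A2058 libraries.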

How the results depend on the processing

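The labels give libraries of several groups the same replicate numbers, which did not meet the criterion for pairing, though in A2058 the differences between libraries 1 and 2 correlated between loss clones at 0.055 to 0.42, above 0.1 in 13 of 21 cases. Of 126 results for the 9 genes with a replicate block, 118 kept their direction and side of the threshold. With 1 library or clone left out, 1944 of 2113 did, and 868 of 924 under the other alternatives, the block included. The block called 3 further results, NOTCH2 (adjusted p = 0.00939) and HES1 (0.0202) against other-arm loss and HES1 for A2058 minus AGS (0.0425), and lost 3 for A2058 minus MCF10A, NCSTN (0.0877), PSEN2 (0.0674) and HEY1 (0.0598). No called gene reversed. Depth limits HEY1 outside A2058 and A2780, and PSENEN in A2780. The causes of the moves below were not tested.

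Counts of called genes moved by over 1.5 times as follows. DESeq2 called 2235 in AGS (1131 in the report's test), 567 in MCF10A (209 higher, 358 lower, against 47 and 272), 496 in MCF10A hRas (34), 525 in 7p-loss (139), 684 in A2058 8q-loss (308), 117 in HCT116 (22), 1 for the interaction (0) and 1496 for AGS minus MCF10A. With no filter there were 13 in MCF10A hRas, 487 in A2058 8q-loss, 133 in HCT116 and 633 for hRas WT. With the replicate block there were 2 in MCF10A hRas, 1 in 7p-loss, 39 in A2058 8q-loss, 8 in HCT116 and 711 for hRas WT. With the libraries of each clone summed there were 725 in A2780, 0 in MCF10A hRas, 55 in 7p-loss, 3228 against other-arm loss and 400 for AGS minus MCF10A. In AGS, WT alone is 1 library, so the count of that fit is not given. WT replicates 1 and 2 gave 16 in 7p-loss and 79 in 8q-loss, and replicates 3 and 4 gave 47 and 16. Without hRas clones 2 and 4, a choice made after seeing the data and so no test, there were 356 (144 higher, 212 lower).

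With 1 library or clone left out, counts ran from 97 to 1773 in AGS, 983 to 1800 in A2780, 16 to 452 in MCF10A, 0 to 60 in MCF10A hRas, 71 to 898 in 7p-loss, 119 to 783 in A2058 8q-loss, 0 to 117 in HCT116, 0 to 173 for hRas WT, 1094 to 3278 for A2780 TK+, 3844 to 7295 against other-arm loss, 1852 to 3155 for A2058 minus MCF10A and 118 to 1484 for AGS minus MCF10A.

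Genes that were not called changed sign as follows, in log2. In A2058 1q-loss PSENEN went to -0.074 and HEY1 to 0.00066 with WT replicates 3 and 4, and HES1 to 0.034 with the replicate block and 0.038 with WT replicates 1 and 2. Against WT alone AGS NOTCH2 went to -0.044 and NOTCH3 to -0.16, and A2780 HES1 to -0.0089. For hRas WT HES1 went to 0.0023 (DESeq2), 0.0015 (RLE) and 0.0034 (replicate block), and for A2058 minus MCF10A to -0.0037 (DESeq2) and -0.0049 (RLE). Without hRas clones 2 and 4 NCSTN went to -0.23, NOTCH1 to 0.068, NOTCH2 to -0.073 and HEY1 to -0.69, and in the interaction APH1A to 0.15 and NOTCH2 to -0.23.

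With 1 library or clone left out, values crossed 0 in these ranges. In A2058 1q-loss they were NCSTN -0.0296 to 0.093, PSENEN -0.15 to 0.19, HES1 -0.054 to 0.024 and HEY1 -0.29 to 0.0059. In AGS it was PSENEN -0.11 to 0.065, in A2780 HES1 -0.0049 to 0.12 and in MCF10A HES1 -0.17 to 0.11. In MCF10A hRas they were NCSTN -0.13 to 0.15, NOTCH1 -0.20 to 0.057 and HEY1 -0.22 to 0.26. In 7p-loss they were NOTCH3 -1.32 to 0.92 and HEY1 -0.055 to 0.37, and in A2058 8q-loss NCSTN -0.011 to 0.30, PSENEN -0.39 to 0.017 and NOTCH3 -0.0304 to 0.70. In HCT116 they were APH1A -0.64 to 0.14, PSEN2 -0.43 to 0.092, PSENEN -0.50 to 0.76, NOTCH1 -0.13 to 0.36 and NOTCH2 -0.36 to 0.57. For hRas WT they were NCSTN -0.025 to 0.047, PSENEN -0.55 to 0.057, NOTCH2 -0.0027 to 0.13, NOTCH3 -0.45 to 0.42, HES1 -0.13 to 0.14 and HEY1 -0.51 to 0.23. For A2780 TK+ they were PSENEN -0.71 to 0.12, NOTCH2 -0.21 to 0.13 and NOTCH3 -0.082 to 0.19, and for the interaction PSEN2 -0.10 to 0.14 and NOTCH3 -0.48 to 0.39. For A2058 minus AGS it was PSENEN -0.13 to 0.22, and for A2058 minus MCF10A APH1A -0.077 to 0.0095, PSENEN -0.62 to 0.0021 and HES1 -0.13 to 0.15. For AGS minus MCF10A they were NOTCH1 -0.075 to 0.15, NOTCH2 -0.12 to 0.035 and HEY1 -0.43 to 0.30.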
